A study of Mus musculus with 32 samples.

Results

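The growth hormone receptor, STAT5 and IGF axis is described here by 9 genes in mouse liver: the receptor Ghr, the transcription factors Stat5a and Stat5b, the products Igf1 and Igfals, the inhibitors Socs2 and Cish, and the repressors Bcl6 and Cux2. The genes were chosen by name, 9 of the 34947 named genes of the array, and every array probe carrying one of these gene names was taken. The members and the gene lists used below were chosen with earlier results of these data known. Of the 9 genes, 8 were chosen for their known place in the axis, and Cux2 was chosen by a measured value, its rise with Fc-GLP-1 on the MCD diet before surgery. Cux2 values in comparisons that use MCD or M+Fc-GLP-1 arrays before surgery are therefore given as a description without a test.

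Pulses of pituitary growth hormone act on the hepatocyte through its receptor and the kinase JAK2, which activates STAT5 proteins. STAT5 then drives transcription of Igf1 and Igfals, whose products circulate together, and of Socs2 and Cish, which damp the signal. In mouse liver the male pattern of pulses keeps Bcl6 high, Cux2 low and a set of male-biased genes on, while the steadier female pattern does the opposite, so these genes are known as readouts of growth hormone action.

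RNA from whole liver of male C57/BL6 mice was measured on 32 single-colour Agilent arrays, in 8 groups of 4 biological replicates. Mice were 8 weeks old at the start of the diet and ate either control chow (C) or a methionine- and choline-deficient diet (MCD), which produces steatohepatitis without obesity. They received saline or Fc-GLP-1, a long-acting GLP-1 receptor agonist fused to an antibody Fc part, so the chow groups are C and, with drug, C+Fc-GLP-1, while those on the deficient diet are MCD and, with drug, M+Fc-GLP-1. Liver was sampled from the tissue taken out at partial hepatectomy (PH), called before PH here, or 2 weeks later. The later samples can come only from mice still alive at that time. The study reports that Fc-GLP-1 raised the share of survivors on either diet. Groups after PH may therefore differ in which mice survived. The part of survival in comparisons after PH, or between the times, was not tested. At surgery the diet had lasted 3 weeks and the drug 2 weeks, 70% of the liver was removed, and diet and treatment went on until the later sample. The labels conflict on the drug, naming Fc-GLP-1 in 1 field and a dual GLP-1 and glucagon receptor agonist at 4.4 mg/kg per day in others, while the study's methods give Fc-GLP-1 at 10 nmol/kg. For C+Fc-GLP-1 after PH, and for no other group, the field that names Fc-GLP-1 also names a dual agonist as the drug given after surgery, so every comparison with that group carries this doubt. Replicate numbers recur at the later time, but whether a number stands for 1 mouse at both times is not stated. C57/BL6 is a wild-type strain and the diet acts on more than growth hormone signalling, so the groups are no model of that axis alone.

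A level is the log2 intensity of a gene's brightest probe minus the 75th percentile of its own array, so levels of different genes, read by different probes, are not compared with each other. The 75th percentile lay between intensities of 209.4 and 778.4, and the share of probes well above background lay between 36.3% and 69.2%. A gene is said to have risen or fallen where the limma test gave an adjusted p below 0.05 over 21071 tested genes. All 8 hepatocyte markers, among them Alb and Serpina1a, were well above background on all 32 arrays. All 9 genes passed the filter on dim probes, with 19 probes among them, and Cux2 alone had arrays not well above background with its brightest probe (30 of 32 were). In whole liver, fewer cells of a type and less RNA per cell cannot be told apart.

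The arrays lay on 5 slides. Before PH the untreated groups C and MCD shared a slide and the treated groups another, and after PH the treated groups shared one, so 3 comparisons were made within 1 slide. In every comparison of treated with untreated mice on the same diet, in MCD against C after PH and in each comparison of after with before PH, slide and group cannot be told apart. C and MCD after PH were also read on another scanner than the other 6 groups, so scanner and group cannot be told apart in drug comparisons after PH or between the times in C and MCD. An additive slide difference cancels in the diet by Fc-GLP-1 interaction before PH.

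The array of C after PH replicate 1 stood apart from its group. Its male-biased genes were low, with Cyp4a12a at 0.6 against 5.98, 6.56 and 5.54 in replicates 2 to 4, and Hsd3b5 at -3.63 against 6.25, 5.56 and 3.14. Its summed linear level of 6 stellate cell markers was 73.8 against 17.4, 14.8 and 26.1, and that of 8 macrophage markers was 598 against 295, 135 and 249. C+Fc-GLP-1 after PH replicate 1 also had a high stellate sum, 65.1 against 22.5, 18.1 and 18.9. Tests of the 9 genes after PH that passed or came near passing with these arrays are also given without them, and the part of these markers in the results was not tested.

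**Figure D1:**
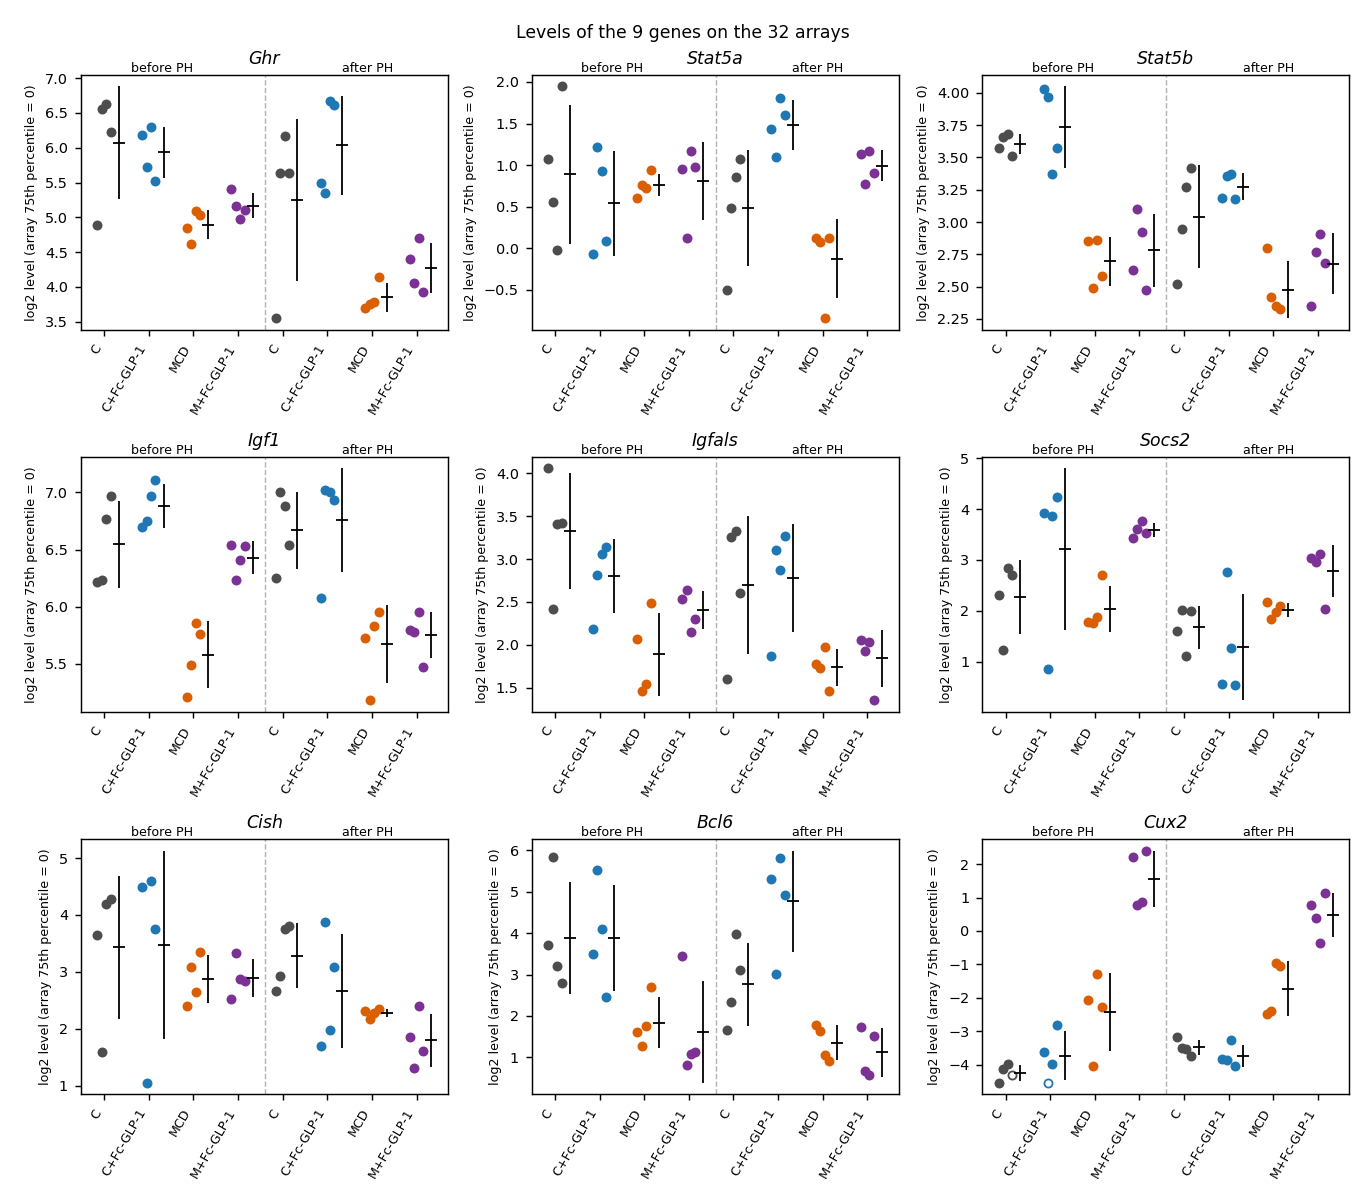
Level of each gene (log2 intensity minus the array's 75th percentile) in 8 groups, 1 point per array, open where the spot was not well above background, with a bar for the mean and a line for the SD of 4 arrays. Ghr, Igf1, Igfals, Cish, Stat5b and Bcl6 had lower means in both MCD-diet groups than in both chow groups at the same time. Cux2 was above 0 on 7 of the 8 M+Fc-GLP-1 arrays and on none of the other arrays.

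Ghr encodes the receptor through which growth hormone acts on hepatocytes. Before PH the Ghr levels were 4.89, 6.56, 6.63 and 6.22 in C and 4.84, 4.62, 5.09 and 5.03 in MCD. In C, replicate 1 lay among the MCD arrays and the other 3 lay above all of them. On slide 2 the levels were 6.18, 5.73, 6.3 and 5.52 in C+Fc-GLP-1 and 5.41, 5.17, 4.98 and 5.1 in M+Fc-GLP-1, with no overlap. On MCD without drug Ghr fell by 1.18 on the log2 scale (2.27-fold, SE 0.41, adjusted p 0.0322; 0.0398 with the 8 arrays of that slide alone). With the drug the diet difference was -0.77 (adjusted p 0.241). The fall on MCD did not pass after median centring (adjusted p 0.118), with normexp and quantile normalization (0.198) or with the authors' values (0.14). It also missed without C replicate 2 (0.0899), 3 (0.0963) or 4 (0.0661) and without MCD replicate 1 (0.0622) or 2 (0.0781), within a range over all alternatives from 0.00633 to 0.198.

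After PH the Ghr levels were 3.55, 5.64, 6.17 and 5.63 in C and 3.7, 3.76, 3.79 and 4.15 in MCD. C replicate 1, the array that stood apart, was below every MCD array, and the other C arrays were above all of them. Levels were 5.49, 5.35, 6.67 and 6.62 in C+Fc-GLP-1 and 4.4, 4.05, 4.71 and 3.93 in M+Fc-GLP-1, which did not overlap. Ghr fell by 1.39 in MCD against C (SE 0.41, adjusted p 0.023), and without C replicate 1 the difference was -1.96 (adjusted p 0.000207). The call was lost without C replicate 2 (0.0772), 3 (0.112) or 4 (0.0741), without MCD replicate 1 (0.0578) or 2 (0.0572), with the authors' values (0.0738) and with the 8 arrays alone (0.119), in a range from 0.000207 to 0.119. In M+Fc-GLP-1 against C+Fc-GLP-1 Ghr fell by 1.76 (3.39-fold, SE 0.41, adjusted p 0.00397), and this call was kept in every alternative tried, with adjusted p from 0.00146 to 0.0219, 0.0132 within the slide and -1.94 without C+Fc-GLP-1 replicate 1. The diet difference after PH minus that before PH was -0.21 without drug (adjusted p 0.883) and -0.99 with it (0.599).

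In order of mean, Ghr stood at 6.07 (SD 0.81) in C before PH, 6.03 (0.71) in C+Fc-GLP-1 after PH, 5.93 (0.37) in C+Fc-GLP-1 before PH and 5.25 (1.16) in C after PH. Then came 5.16 (0.18) in M+Fc-GLP-1 before PH, 4.89 (0.21) in MCD before PH, 4.27 (0.35) in M+Fc-GLP-1 after PH and 3.85 (0.2) in MCD after PH. Of the 7 neighbouring pairs, 4 differed by less than the larger of their SDs, and all 7 overlapped. After PH against before PH, Ghr in MCD had a difference of -1.04 and in M+Fc-GLP-1 of -0.89, with no overlap in either, but neither passed (adjusted p 0.108 and 0.275). In MCD it passed with the 8 arrays alone (0.0108, in a range from there to 0.335). In C the difference was -0.83 (adjusted p 0.171), which was -0.26 without C after PH replicate 1 and passed at -1.22 without C before PH replicate 1 (0.0471, range to 0.75). A further Ghr probe fell in M+Fc-GLP-1 against C+Fc-GLP-1 before PH (-1.38, adjusted p 0.0337), in MCD against C after PH (-2.05, 0.0017) and in M+Fc-GLP-1 against C+Fc-GLP-1 after PH (-1.88, 0.00312), and missed in MCD against C before PH (-1.11, 0.0525).

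Stat5b encodes the STAT5 protein that carries most of the growth hormone signal in male liver. Before PH the Stat5b levels were 3.57, 3.66, 3.68 and 3.51 in C and 2.85, 2.49, 2.86 and 2.58 in MCD. They were 4.03, 3.97, 3.37 and 3.57 in C+Fc-GLP-1 and 2.63, 3.1, 2.92 and 2.47 in M+Fc-GLP-1. All 8 chow arrays lay above all 8 MCD-diet arrays. Stat5b fell by 0.91 with MCD (1.88-fold, SE 0.2, adjusted p 0.00163; 0.0105 within the slide) and by 0.96 in M+Fc-GLP-1 against C+Fc-GLP-1 (1.94-fold, SE 0.2, adjusted p 0.00231). After median centring the first was -0.54 and not called (0.107), and within the slide the second missed the threshold (0.0521), where the ranges over alternatives were 4.22e-05 to 0.447 and 0.000347 to 0.176.

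After PH the levels were 2.52, 2.95, 3.27 and 3.42 in C and 2.8, 2.42, 2.35 and 2.33 in MCD, and C replicate 1 was again among the MCD arrays. In the treated mice they were 3.19, 3.36, 3.37 and 3.18 on chow and 2.35, 2.77, 2.91 and 2.68 on MCD, with no overlap. The difference of MCD from C was -0.57 (adjusted p 0.0663), and it passed without C replicate 1 (-0.74, 0.0146), without MCD replicate 1 (-0.67, 0.0488), with normexp (-1.08, 0.000433), with the authors' values (-1.07, 0.00176) and as a mean over probes (-0.75, 0.0199), with 0.281 as the highest. Stat5b fell by 0.6 in M+Fc-GLP-1 against C+Fc-GLP-1 (1.52-fold, SE 0.2, adjusted p 0.0492). This call was lost within the slide (0.117), with a replicate block (0.059), after median centring (0.0975), with the authors' values (0.0574) and without the filter (0.107). Leaving out an array also ended it for 7 of 8 arrays, all 4 of C+Fc-GLP-1 (0.0684, 0.107, 0.113 and 0.0699 for replicates 1 to 4) and M+Fc-GLP-1 replicates 1 (0.162), 2 (0.0732) and 4 (0.0817), and the range over alternatives was 0.0159 to 0.162.

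The Stat5b means ran from 3.74 (SD 0.32) in C+Fc-GLP-1 before PH and 3.6 (0.08) in C before PH to 3.28 (0.1) in C+Fc-GLP-1 after PH and 3.04 (0.4) in C after PH. The MCD-diet groups followed with 2.78 (0.28) in M+Fc-GLP-1 and 2.7 (0.19) in MCD before PH, then 2.68 (0.24) in M+Fc-GLP-1 and 2.48 (0.22) in MCD after PH. Only the step of 0.32 from C before PH to C+Fc-GLP-1 after PH exceeded the larger SD of its pair without overlap, and the other 6 of 7 neighbouring pairs overlapped. C after PH lay below C before PH without overlap (-0.56, adjusted p 0.0605; -0.39 without C after PH replicate 1, and passing at -0.69 without C after PH replicate 4, 0.0373, range to 0.771). The other Stat5b probe gave -0.34 in MCD against C (adjusted p 0.447) and -0.68 in M+Fc-GLP-1 against C+Fc-GLP-1 (0.176) before PH, and -0.94 in each after PH (0.0501 and 0.048).

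Stat5a encodes the closely related second STAT5 protein, and limma on all arrays called it in no comparison. Its levels ranged from -0.02 to 1.95 in C, -0.07 to 1.22 in C+Fc-GLP-1, 0.61 to 0.94 in MCD and 0.12 to 1.17 in M+Fc-GLP-1 before PH, so these groups overlapped. After PH they ranged from -0.5 to 1.08 in C, 1.1 to 1.81 in C+Fc-GLP-1, -0.84 to 0.13 in MCD and 0.77 to 1.17 in M+Fc-GLP-1, and each treated group lay above its untreated group without overlap. The differences with the drug after PH were 1 on chow (SE 0.36, adjusted p 0.149; 0.68 without C replicate 1) and 1.12 on MCD (SE 0.36, 2.17-fold, adjusted p 0.0557). The latter passed narrowly with the authors' values (0.0494), with the percentile taken over probes (0.0494) and with the 8 arrays alone (0.0486), with 0.171 as the highest. After PH against before PH in MCD the difference was -0.89 without overlap (adjusted p 0.122), which passed with the 8 arrays alone (0.0478). The means ran from 1.49 (SD 0.3) in C+Fc-GLP-1 after PH to -0.12 (0.48) in MCD after PH, and 6 of 7 neighbouring pairs differed by less than the larger SD.

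Igf1 encodes the growth factor that the liver releases under growth hormone. Before PH the Igf1 levels were 6.22, 6.23, 6.77 and 6.97 in C, and 5.21, 5.49, 5.86 and 5.76 in MCD. They were 6.7, 6.75, 6.97 and 7.11 in C+Fc-GLP-1 and 6.54, 6.23, 6.41 and 6.53 in M+Fc-GLP-1. The MCD arrays were the 4 lowest of the 16 before PH, and M+Fc-GLP-1 arrays lay between MCD and C+Fc-GLP-1 without overlapping either. Igf1 fell by 0.97 with MCD (1.96-fold, SE 0.24, adjusted p 0.00331; 0.0231 within the slide) and rose by 0.85 in M+Fc-GLP-1 against MCD (1.8-fold, SE 0.24, adjusted p 0.0281). In the treated mice the diet difference was -0.45 (adjusted p 0.229), on chow the drug difference was 0.34 (0.466), and the interaction was 0.51 (SE 0.33, adjusted p 0.356).

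These calls depended on the scaling. The fall with MCD was -0.6 after median centring (adjusted p 0.0974), -0.53 with normexp and quantile normalization (0.128) and -0.54 with the authors' values (0.157), while the drug difference on chow passed with normexp (0.86, 0.0265) and with the authors' values (0.88, 0.0443). Over all alternatives, single probes included, the adjusted p ran from 0.000161 to 0.956 for the fall and from 0.0265 to 0.85 for the drug on chow. The rise with Fc-GLP-1 on MCD was lost after median centring (0.53, 0.226), as a mean over probes (0.77, 0.0501), and without MCD replicate 1 (0.107) or 2 (0.0643) or M+Fc-GLP-1 replicate 1 (0.0693), 3 (0.0614) or 4 (0.0609), in a range from 0.0139 to 0.471.

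After PH the Igf1 levels were 6.25, 7, 6.88 and 6.54 in C and 5.73, 5.18, 5.83 and 5.95 in MCD. They were 6.08, 7.02, 7 and 6.93 in C+Fc-GLP-1 and 5.8, 5.78, 5.95 and 5.47 in M+Fc-GLP-1. All 8 MCD-diet arrays lay below all 8 chow arrays, and MCD and M+Fc-GLP-1 overlapped. Igf1 fell by 0.99 in MCD against C (1.99-fold, SE 0.24, adjusted p 0.00549; -1.13 without C replicate 1) and by 1.01 in M+Fc-GLP-1 against C+Fc-GLP-1 (2.01-fold, SE 0.24, adjusted p 0.00433; 0.0422 within the slide; -1.23 without C+Fc-GLP-1 replicate 1). As a mean over probes they were -0.64 (0.08) and -0.35 (0.388), neither called, and the ranges were 0.00215 to 0.516 and 0.000663 to 0.669. The difference with the drug on MCD was 0.08 (adjusted p 0.885), and this difference minus the one before PH was -0.77 (SE 0.33, adjusted p 0.233), so a change between the times was not shown.

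The 4 chow groups had Igf1 means of 6.88 (SD 0.19) in C+Fc-GLP-1 before PH, 6.76 (0.45) in C+Fc-GLP-1 after PH, 6.67 (0.34) in C after PH and 6.55 (0.38) in C before PH. M+Fc-GLP-1 before PH followed at 6.43 (0.14), then a step of 0.68 without overlap led to M+Fc-GLP-1 after PH at 5.75 (0.2), MCD after PH at 5.67 (0.34) and MCD before PH at 5.58 (0.29). The other 6 neighbouring pairs differed by less than the larger SD and overlapped. M+Fc-GLP-1 after PH lay below M+Fc-GLP-1 before PH without overlap (-0.68, SE 0.24), and that difference did not pass (adjusted p 0.138).

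Igf1 had 5 probes along its gene, and they did not move alike. Probes 1 and 2 overlap in position and read nearly the same stretch. In MCD against C before PH the differences of probes 1 to 5 were -0.97, -0.9, -0.03, -0.79 and -1.83, of which probe 2 (adjusted p 0.0372) and probe 5 (0.000161) passed beside probe 1. After PH, MCD against C, probe 2 fell (-1.26, adjusted p 0.00945), while probe 3 was at -0.6, probe 4 at 0.47 (0.516) and probe 5 at -0.82 (0.1). In M+Fc-GLP-1 against C+Fc-GLP-1 after PH the probes other than the first were at -0.85, -0.3, 0.72 and -0.33, none called. With Fc-GLP-1 on MCD before PH all 5 were positive, the others at 0.41, 1.06, 0.57 and 0.96 with none called. On that diet after PH probe 5 rose (1.07, adjusted p 0.0456). In C, probe 3 rose (1.33, 0.0122) and probe 5 fell (-1.08, 0.0261) after PH against before PH, where probe 1 was at 0.12.

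**Figure D2:**
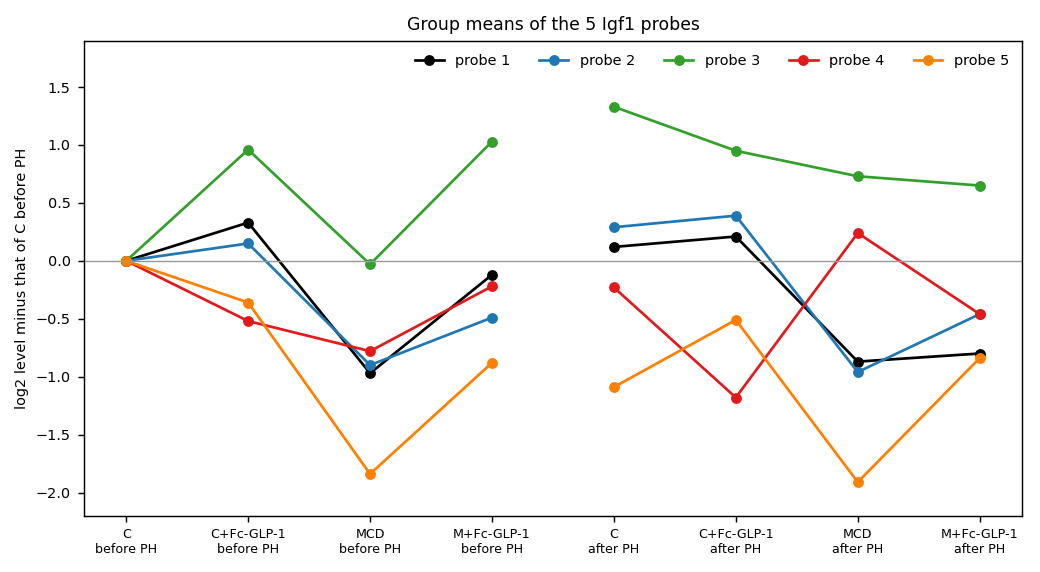
Mean level of each of 5 Igf1 probes in 8 groups of 4 arrays, as a log2 difference from the same probe's mean in C before PH, 1 line per probe. Probes 1, 2 and 5 were lower in MCD than in C at each time, whereas probe 3 was at -0.03 in MCD before PH and probe 4 was higher in MCD than in C after PH.

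Igfals encodes the acid-labile subunit that holds IGF1 in its circulating complex, a known STAT5 target. Its promoters with a match to the STAT5 motif TTCNNNGAA, a palindrome that reads the same on both strands, are shown whole or in part. In the 250 bases before each gene start, 2306 of 32851 RefSeq promoters (7.02%) hold a match. Of the 9 genes, 8 had promoters, 15 in all, and matches lay in 4 of these, belonging to Igfals and Bcl6. Igfals had 3 promoters, of which 2 held a match. Ghr, Igf1 and Stat5b also fell with the diet before PH, and their promoters held 0 matches. The outermost Igfals promoter (RefSeq, GRCm38.p6, chr17:24877594-24877843, + strand, 5′ to 3′) follows with the match in capitals, 236 bases before the start, and then the stretch around the match 58 bases before an inner start (chr17:24878163-24878191, + strand).
Igfals outer promoter: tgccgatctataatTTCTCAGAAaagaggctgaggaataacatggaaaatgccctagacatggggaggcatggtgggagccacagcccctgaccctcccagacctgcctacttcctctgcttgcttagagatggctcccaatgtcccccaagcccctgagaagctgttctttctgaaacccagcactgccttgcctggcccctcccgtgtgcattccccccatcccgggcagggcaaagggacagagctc
Igfals inner stretch: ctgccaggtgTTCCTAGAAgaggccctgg
A match describes the letters of the window and not binding.

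Before PH the Igfals levels were 4.06, 2.42, 3.41 and 3.42 in C and 2.07, 1.46, 1.54 and 2.49 in MCD. C replicate 2 and MCD replicate 4 crossed, and the other C arrays lay above all MCD arrays. Igfals fell by 1.44 (2.71-fold, SE 0.35, adjusted p 0.00369; 0.0177 within the slide), a call kept in all 17 alternatives (0.000921 to 0.0435). The levels were 2.19, 2.82, 3.06 and 3.14 in C+Fc-GLP-1 and 2.54, 2.64, 2.15 and 2.3 in M+Fc-GLP-1, which overlapped. The diet difference in treated mice was -0.39 (adjusted p 0.532), the drug difference was -0.52 on chow (0.448) and 0.52 on MCD (0.384), and the interaction was 1.04 (SE 0.5, adjusted p 0.204). With normexp and quantile normalization the drug difference on MCD was 1.08 and passed (0.0479, range to 0.795).

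After PH the Igfals levels were 1.6, 3.26, 3.33 and 2.6 in C and 1.78, 1.73, 1.97 and 1.46 in MCD. In treated mice they were 1.87, 3.11, 2.87 and 3.27 on chow and 2.06, 1.93, 2.03 and 1.35 on MCD. In both chow groups replicate 1 was low and lay among the MCD-diet arrays. The diet differences of -0.96 (adjusted p 0.0752) and -0.93 (0.0832) did not pass. Without replicate 1 of the chow group they were -1.33 (0.00878) and -1.24 (0.0234) and passed, and the first also passed with normexp (-1.28, 0.0224) and with the authors' values (-1.26, 0.0294). The highest adjusted p over alternatives was 0.242 and 0.322. The Igfals means ran from 3.33 (SD 0.68) in C before PH through 2.8 (0.43), 2.78 (0.63) and 2.7 (0.8) in C+Fc-GLP-1 before PH, C+Fc-GLP-1 after PH and C after PH. Then came 2.41 (0.22) in M+Fc-GLP-1 before PH, 1.89 (0.48) in MCD before PH, 1.84 (0.33) in M+Fc-GLP-1 after PH and 1.73 (0.21) in MCD after PH, with all 7 neighbouring pairs overlapping.

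Socs2 encodes a STAT5-induced inhibitor of the growth hormone receptor. Before PH the Socs2 levels were 2.32, 1.24, 2.85 and 2.7 in C and 3.92, 0.85, 3.86 and 4.23 in C+Fc-GLP-1. They were 1.78, 1.77, 1.88 and 2.71 in MCD and 3.44, 3.61, 3.77 and 3.53 in M+Fc-GLP-1. Every M+Fc-GLP-1 array lay above every MCD array, and 3 of 4 C+Fc-GLP-1 arrays lay above every C array while replicate 2 lay below them all. The drug difference on MCD was 1.55 (2.93-fold, SE 0.52) and just missed (adjusted p 0.0613). It passed with normexp (0.0243), without the filter (0.0371), as a mean over probes (0.0182) and with the 8 arrays alone (0.0123), in a range to 0.192, and slide and group cannot be told apart in it. On chow it was 0.94 (adjusted p 0.337), and without C+Fc-GLP-1 replicate 2 it was 1.72 and passed (0.0332, range to 0.811). The interaction was 0.62 (adjusted p 0.644). In treated mice the diet difference was 0.37 (adjusted p 0.707). The dimmest of the 4 Socs2 probes was called there (2.44, adjusted p 0.0163). That probe was well above background on only 1 of 4 C+Fc-GLP-1 and 3 of 4 M+Fc-GLP-1 arrays, so its call is not read as a change.

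After PH the Socs2 levels were 1.6, 2.02, 1.12 and 1.99 in C and 0.56, 2.77, 1.28 and 0.54 in C+Fc-GLP-1. On the MCD diet they were 2.17, 1.84, 1.98 and 2.09 untreated and 3.04, 2.96, 3.11 and 2.03 treated. M+Fc-GLP-1 replicate 4 was low within its group, and C+Fc-GLP-1 replicate 2 high within its own. M+Fc-GLP-1 differed from C+Fc-GLP-1 by 1.5 (2.83-fold, SE 0.52, adjusted p 0.0525) and from MCD by 0.77 (0.399). The former passed without C+Fc-GLP-1 replicate 2 (1.99, 0.0109), without M+Fc-GLP-1 replicate 4 (1.75, 0.0361), with the authors' values (1.37, 0.022) and as a mean over probes (1.38, 0.0171), in a range from 0.0109 to 0.195, and was 1.26 (0.152) without C+Fc-GLP-1 replicate 1. In C+Fc-GLP-1 Socs2 after PH against before PH was at -1.93 (adjusted p 0.0688), passing without replicate 2 before PH (-2.71, 0.00217), without replicate 2 after PH (-2.42, 0.0251), with normexp (-1.86, 0.0244) and without the filter (-1.93, 0.0486), with 0.788 as the highest and -1.68 (0.214) without replicate 1 after PH. The Socs2 means ran from 3.59 (SD 0.14) in M+Fc-GLP-1 before PH to 1.29 (1.05) in C+Fc-GLP-1 after PH, and all 7 neighbouring pairs differed by less than the larger SD.

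Cish encodes a second STAT5-induced inhibitor of cytokine receptor signalling, and it passed the limma test in no comparison. Its levels before PH ranged from 1.59 to 4.29 in C, 1.05 to 4.59 in C+Fc-GLP-1, 2.4 to 3.35 in MCD and 2.52 to 3.33 in M+Fc-GLP-1, with replicate 2 the lowest in each chow group. After PH Cish ranged from 2.67 to 3.8 in C, 1.7 to 3.87 in C+Fc-GLP-1, 2.17 to 2.35 in MCD and 1.31 to 2.4 in M+Fc-GLP-1. MCD lay below C after PH without overlap, at a difference of -1.01 (SE 0.58, adjusted p 0.285; -1.21 without C replicate 1) that passed only with the authors' values (-1.45, 0.0156, range to 0.479). The means ran from 3.48 (SD 1.66) in C+Fc-GLP-1 before PH to 1.79 (0.46) in M+Fc-GLP-1 after PH, and 6 of 7 neighbouring pairs differed by less than the larger SD.

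Bcl6 encodes a repressor that binds many STAT5 sites in male liver and is itself known to be repressed by STAT5. Its promoters are shown because both hold the motif TTCNNNGAA. The outer promoter (RefSeq, GRCm38.p6, chr16:23988853-23989102, - strand, 5′ to 3′) has the match 118 bases before its start. The inner promoter has 3, at 168 (chr16:23981433-23981461), 122 (chr16:23981387-23981415) and 88 bases (chr16:23981353-23981381) before its start, on the same strand, with capitals again marking the motif.
Bcl6 outer promoter: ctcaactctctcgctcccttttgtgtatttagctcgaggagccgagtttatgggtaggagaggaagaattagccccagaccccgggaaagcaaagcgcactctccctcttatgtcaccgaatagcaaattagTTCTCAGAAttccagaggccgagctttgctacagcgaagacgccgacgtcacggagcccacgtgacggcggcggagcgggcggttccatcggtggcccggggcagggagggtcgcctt
Bcl6 inner stretch at 168: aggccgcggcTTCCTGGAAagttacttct
Bcl6 inner stretch at 122: ggcaggagtgTTCTGTGAAatccttagag
Bcl6 inner stretch at 88: atcgactacgTTCCGGGAAtgagagggct

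Before PH the Bcl6 levels were 3.72, 5.83, 3.2 and 2.79 in C and 1.61, 1.28, 1.76 and 2.7 in MCD. They were 3.49, 5.53, 4.09 and 2.46 in C+Fc-GLP-1 and 3.44, 0.81, 1.08 and 1.12 in M+Fc-GLP-1. Every C array lay above every MCD array, while M+Fc-GLP-1 replicate 1 lay among the C+Fc-GLP-1 arrays and the other 3 lay below them. Bcl6 fell by 2.05 with MCD (4.14-fold, SE 0.67, adjusted p 0.0244; 0.029 within the slide) and by 2.28 in M+Fc-GLP-1 against C+Fc-GLP-1 (4.86-fold, SE 0.67, adjusted p 0.0267; 0.0877 within the slide, not called). The first was lost without C replicate 2 (-1.4, 0.123) or MCD replicate 1 (-1.97, 0.0543) or 2 (-1.86, 0.067). The second was lost without C+Fc-GLP-1 replicate 2 (-1.74, 0.129) or 3 (-2.21, 0.0629), without M+Fc-GLP-1 replicate 2 (0.0724), 3 (0.0761) or 4 (0.0791), and with the authors' values (0.08). Over alternatives the adjusted p ran from 0.015 to 0.123 and from 0.00652 to 0.129.

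After PH the Bcl6 levels were 1.66, 2.33, 3.98 and 3.1 in C and 1.78, 1.63, 1.06 and 0.92 in MCD. They were 5.32, 3.01, 5.82 and 4.92 in C+Fc-GLP-1 and 1.72, 0.67, 0.56 and 1.52 in M+Fc-GLP-1. In the treated mice every chow array was above every MCD-diet array, and without drug C replicate 1 crossed the MCD range. Bcl6 fell by 3.65 in M+Fc-GLP-1 against C+Fc-GLP-1 (12.6-fold, SE 0.67, adjusted p 0.000385), a call kept in every alternative, with adjusted p from 0.000116 to 0.00298, 0.00277 within the slide and -3.47 without C+Fc-GLP-1 replicate 1. The difference of MCD from C was -1.42 (adjusted p 0.18; -1.79 and 0.0939 without C replicate 1; range 0.0523 to 0.437). With the drug on chow it was 2 (SE 0.67, adjusted p 0.12), 1.63 (0.289) without C replicate 1 and called at 2.59 (0.0492) without C+Fc-GLP-1 replicate 2, with 0.334 as the highest. The drug difference on MCD minus that on chow was -2.23 (SE 0.95, adjusted p 0.487). The means ran from 4.77 (SD 1.23) in C+Fc-GLP-1 after PH and 3.89 in C (1.35) and C+Fc-GLP-1 (1.28) before PH to 2.77 (1) in C after PH. The MCD-diet groups followed at 1.84 (0.61) in MCD and 1.61 (1.23) in M+Fc-GLP-1 before PH, then 1.35 (0.42) in MCD and 1.12 (0.59) in M+Fc-GLP-1 after PH, and all 7 neighbouring pairs differed by less than the larger SD.

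Among the 16 chow arrays, the 5 with the highest Bcl6 had low Socs2, a pattern chosen after the values were seen. The 5 arrays with the highest Bcl6 were C replicate 2 (5.83) and C+Fc-GLP-1 replicate 2 (5.53) before PH and C+Fc-GLP-1 replicates 1 (5.32), 3 (5.82) and 4 (4.92) after PH. Their Socs2 levels were 1.24, 0.85, 0.56, 1.28 and 0.54 in that order, and their Cish levels were 1.59, 1.05, 1.7, 1.98 and 3.09. Socs2 was lower on each of them than on all other chow arrays except C after PH replicate 3, at 1.12. Next in Bcl6 came C+Fc-GLP-1 before PH replicate 3, at 4.09 with Socs2 at 3.86. It was followed by C after PH replicate 3, at 3.98. The arrays are pooled over the chow groups, and the part of group differences in the pattern was not tested.

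Cux2 encodes a repressor that is high in female and low in male mouse liver. Before PH the Cux2 levels were -4.54, -4.14, -3.99 and -4.31 in C and -2.08, -4.04, -1.3 and -2.29 in MCD, where replicate 2 lay among the C arrays. They were -3.61, -4.54, -3.97 and -2.8 in C+Fc-GLP-1 and 2.2, 0.79, 0.87 and 2.38 in M+Fc-GLP-1. Replicate 4 of C and replicate 2 of C+Fc-GLP-1 were not well above background, and all M+Fc-GLP-1 arrays were above all others. As a description on which the choice of the gene rests, M+Fc-GLP-1 was higher than MCD by 3.99 (15.9-fold) and higher than C+Fc-GLP-1 by 5.29 (39.2-fold), MCD was higher than C by 1.82 (3.52-fold), and the interaction was 3.48. With normexp and with the authors' values the difference of 5.29 was 3.83 and 3.72. With the other Cux2 probe that difference was 4.19 and the interaction 1.71. This probe was not well above background on any chow array, so neither is read as an exact value.

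After PH, on arrays not used to choose the gene, the Cux2 levels were -3.18, -3.51, -3.52 and -3.74 in C and -2.48, -2.41, -0.96 and -1.04 in MCD. Whether these arrays come from mice that also gave the tissue before PH is not stated. The tests of Cux2 after PH may therefore not be independent of its choice. They were -3.83, -3.86, -3.26 and -4.04 in C+Fc-GLP-1 and 0.78, 0.38, -0.37 and 1.15 in M+Fc-GLP-1. All 4 M+Fc-GLP-1 arrays lay above all MCD arrays, which in turn lay above all chow arrays. Cux2 rose by 1.76 in MCD against C (3.4-fold, SE 0.47, adjusted p 0.0127; 1.87 without C replicate 1) and by 2.21 in M+Fc-GLP-1 against MCD (4.62-fold, SE 0.47, adjusted p 0.00489). It rose by 4.23 in M+Fc-GLP-1 against C+Fc-GLP-1 (18.8-fold, SE 0.47, adjusted p 4.46e-07; 8.18e-05 within the slide, which was the highest over alternatives; 4.21 without C+Fc-GLP-1 replicate 1). The highest adjusted p for the other comparisons was 0.0498 and 0.218. On chow the drug difference was -0.26 (adjusted p 0.868), and the drug difference on MCD minus that on chow was 2.47 (SE 0.66, adjusted p 0.185). Its other probe was not well above background on any chow array, and after PH it was at least 1.86-fold higher in MCD than in C and at least 4.88-fold higher in M+Fc-GLP-1 than in C+Fc-GLP-1, with 1.01 (adjusted p 0.218) between MCD and M+Fc-GLP-1. The means ran from 1.56 (SD 0.85) in M+Fc-GLP-1 before PH and 0.48 (0.65) after PH, across a step of 2.2 without overlap, to -1.72 (0.84) in MCD after PH and -2.43 (1.16) in MCD before PH. The chow groups lay lowest, at -3.49 (0.23) in C after PH, -3.73 (0.73) in C+Fc-GLP-1 before PH, -3.75 (0.34) in C+Fc-GLP-1 after PH and -4.24 (0.24) in C before PH, and 4 of 7 neighbouring pairs differed by less than the larger SD.

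Counted over the axis, with Cux2 left out where it chose the comparison, calls in comparisons of the MCD diet with chow were mostly downward. In MCD against C after PH, slide and group cannot be told apart. In MCD against C before PH, 5 of 8 genes fell (Ghr, Igf1, Igfals, Stat5b and Bcl6) and none rose, against 26.5% of all tested genes called, 15.5% lower and 10.9% higher. The median of the 8 was -0.94 beside -0.13 for all genes. That count was 2 after median centring, where the median of all genes was 0.24, and 3 with normexp or with the authors' values. In M+Fc-GLP-1 against C+Fc-GLP-1 before PH, 2 of 8 fell (Stat5b and Bcl6) against 10.4% of all genes called, 5.01% lower and 5.35% higher, with medians of -0.52 and 0.04, and within the slide neither was called. After PH in MCD against C, 2 of 9 fell (Ghr and Igf1) and Cux2 rose, against 12.1% called, 6.09% lower and 6.05% higher. Without C replicate 1, 5 were called, Igfals and Stat5b being added. In M+Fc-GLP-1 against C+Fc-GLP-1 after PH, 4 of 9 fell (Ghr, Igf1, Stat5b and Bcl6) and Cux2 rose, against 12.8% called, 6.62% lower and 6.20% higher. Without C+Fc-GLP-1 replicate 1, 5 were called as well, with Igfals added and Stat5b lost. The medians after PH were -0.96 without and -0.87 with the drug, beside -0.03 and -0.01 for all genes, and -1.13 and -1.19 without replicate 1 of the chow group.

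Fc-GLP-1 itself was followed by fewer calls. In C+Fc-GLP-1 against C, limma called 0 of 9 genes before PH (2.11% of all genes called; 0 at an unadjusted p below 0.05) and 0 of 9 after PH (2.06%; 2 unadjusted, Stat5a and Bcl6), and 0 of 9 after PH without replicate 1 of either group. On the MCD diet Igf1 alone of 8 rose before PH, against 7.22% of all genes called, 4.43% higher and 2.79% lower. After PH Cux2 alone of 9 rose on that diet, against 6.50% called, 3.71% higher and 2.79% lower. The interaction of diet and drug before PH called 0 of 8 with limma (6.15% of all genes; 1 unadjusted, Igfals). These comparisons share groups, MCD and C+Fc-GLP-1 each serving in more than 1, so their calls are not independent.

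Surgery was followed by no call in the axis when all arrays, the 75th percentile and the filter were used. After PH against before PH, limma called 0 of 9 in C (14.0% of all genes called; 1 of the 9 at an unadjusted p below 0.05), 0 of 8 in MCD (9.43%; 2 unadjusted), 0 of 9 in C+Fc-GLP-1 (0.835%; 3 unadjusted) and 0 of 8 in M+Fc-GLP-1 (1.71%; 2 unadjusted). Differences were negative for 7 of 9, 7 of 8, 6 of 9 and 7 of 8 genes, with medians of -0.56, -0.36, -0.02 and -0.62. Without C after PH replicate 1 the C values were negative for 6 of 9 with a median of -0.26, and without C+Fc-GLP-1 after PH replicate 1 those of C+Fc-GLP-1 were negative for 3 of 9 with a median of 0.1. Some alternatives did bring calls, given above for Ghr, Stat5a, Stat5b and Socs2. With normexp and quantile normalization Igf1 also rose in C (1.15, adjusted p 0.0041, against 0.12 above) and Stat5b fell in C+Fc-GLP-1 (-0.73, 0.0285) beside Socs2. Limma tests of the diet or drug difference after PH minus that before PH, and of the drug difference between diets, called 0 of the genes in each of 6 such differences, with 0, 2, 2, 0, 2 and 1 at an unadjusted p below 0.05. Differences in calls between times or diets are therefore not shown to be differences in effect.

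**Figure D3:**
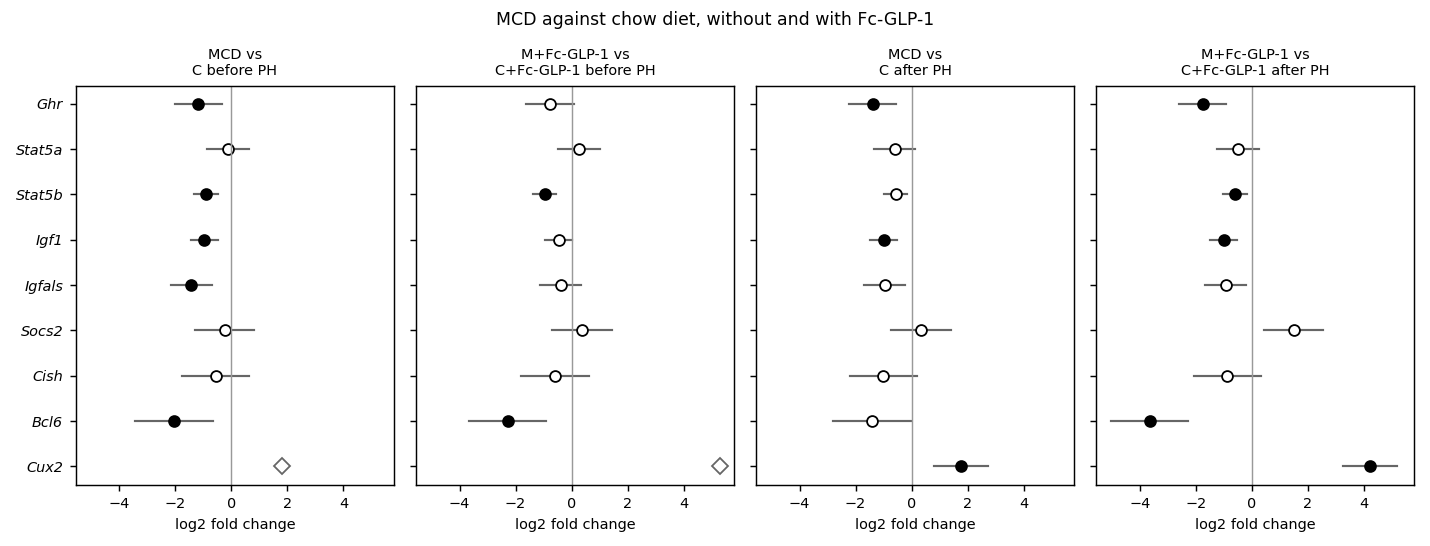
Log2 fold change with its 95% interval for 9 genes in 4 comparisons of the MCD diet with chow, filled where the adjusted p was below 0.05, open circles where not, and open diamonds for Cux2 before PH, which was not tested. Ghr, Igf1, Igfals, Cish, Stat5b and Bcl6 lay below 0 in all 4, though not all were called. Stat5b ranged from -0.57 to -0.96 and Bcl6 from -1.42 to -3.65. Cux2 lay above 0 in the comparisons after PH. Its values and any interval before PH come from arrays used to choose the gene, so they describe and do not test.

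Other genes of the growth hormone and IGF pathway, 25 listed and 22 tested (Igf2, Pappa and Pappa2 were too dim), had few calls. In MCD against C before PH 4 of 22 were called beside 26.5% of all genes. Of these 1 rose, the IGF1 receptor gene Igf1r (1.01, adjusted p 0.0145), and 3 fell, the receptor-binding adaptor Grb10 (-1.22, 0.00844), the insulin receptor gene Insr (-0.87, 0.0179) and the adaptor Sh2b2 (-0.77, 0.0264), and the median was -0.09 beside -0.13 for all genes. After median centring these counts were 3 higher and 0 lower. Sh2b2 also fell in M+Fc-GLP-1 against C+Fc-GLP-1, before PH (-1.63, 7.18e-05) and after it (-1.82, 1.26e-05), and against MCD after PH (-0.85, 0.0424). Before PH in the former comparison the insulin receptor substrate gene Irs2 (1.48, 0.0226) rose. With limma, 0 of 22 were called with the drug on chow before PH (3 unadjusted) or after it (2), or on MCD before PH (2). Of all genes, 2.11%, 2.06% and 7.22% were called in these comparisons. After PH, Ptpn11, a phosphatase of the receptor pathway, rose with MCD (0.59, 0.0162), the 1 call of 22 beside 12.1% of all genes. The stanniocalcin gene Stc2 stood clear of background throughout C+Fc-GLP-1 after PH alone (4 arrays), and on 0 to 3 arrays of every other group, so its calls, 4 in number, are not read as changes. Between the times Shc1 fell in C (-1.25, 0.0222), Stat3 rose in MCD (0.78, 0.0267), each the 1 call of 22 beside 14.0% and 9.43% of all genes, and none of 22 was called in M+Fc-GLP-1 by limma (2 unadjusted, beside 1.71% of all genes called).

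Sex-biased liver genes are known readouts of the growth hormone pattern and separated the diets widely. Of 15 male-biased genes, 13 were tested. Cyp4a12a, a male-biased fatty acid hydroxylase, stood at 6.55, 6.23, 6.9 and 6.46 in C and at -0.06, 0.34, 1.04 and 0.57 in MCD before PH. With the drug before PH it stood at 3.38, 5.04, 5.4 and 4.54 on chow and at 0.43, -0.81, 0.09 and 1.43 on MCD. No MCD-diet array reached any chow array, and the falls were 6.06 (-6.06, adjusted p 5.67e-06) and 4.3 (-4.3, 0.000824). Male-biased genes that fell numbered 11 of 13 in MCD against C and 10 of 13 in M+Fc-GLP-1 against C+Fc-GLP-1 before PH, then 8 and 10 of 13 after PH, and none rose. Of all genes, 15.5%, 5.01%, 6.09% and 6.62% were called lower in these 4 comparisons. The medians of the 13 were -3.35, -3.32, -2.72 and -3.67, beside -0.13, 0.04, -0.03 and -0.01 for all genes, and -2.91 for the second with 2 genes at their bound. All 13 passed the filter through a chow group, and of the 11 that also passed through an MCD-diet group 10, 9, 8 and 9 fell. Those 11 had medians of -2.93, -2.55, -3.38 and -3.88. Elovl3 (-6, adjusted p 0.000376) and the steroid dehydrogenase Hsd3b5 (-5, 0.00252) fell with Cyp4a12a most in MCD before PH. After PH the MCD count was 12, with a median of -3.79, without C replicate 1, and 3 with the 8 arrays alone. Limma called 0 of 13 with the drug on chow before PH (1 unadjusted) and after PH (2), and on MCD before PH (1) and after PH (2). These counts stood beside 2.11%, 2.06%, 7.22% and 6.50% of all genes called. On chow after PH the median of the 13 was 0.69, and -0.09 without C replicate 1. After PH against before PH, 3 fell in C and 4 fell in MCD, and with the drug limma called 0 on chow (0 unadjusted) and 1 on MCD, while the 3 in C became 0 without C after PH replicate 1. Between the times 14.0%, 9.43%, 0.835% and 1.71% of all genes were called in that order of groups.

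Female-biased genes moved the other way with the diet. Of 20 listed, 15 were tested, and 9 rose in each diet comparison before PH, 8 in MCD against C after PH and 10 in M+Fc-GLP-1 against C+Fc-GLP-1 after PH, with none called lower. Of all genes, 10.9%, 5.35%, 6.05% and 6.20% were called higher in these comparisons, with medians of -0.13, 0.04, -0.03 and -0.01. The filter kept 4 of the 15 only through MCD-diet groups, where they were high, so their rise and their testing are not independent. Of the 11 that also passed through a chow group, 6, 7, 5 and 7 rose in the 4 comparisons, with medians of 1.05, 2.46, 1.33 and 1.59. Without replicate 1 of the chow group the counts of the 15 after PH were 10 and 10, with medians of 2.34 and 2.12. The medians on all arrays were 2.14, 2.46, 1.72 and 2.03, or 1.47, 2.46, 1.72 and 2.01 with genes below background in the chow group set at their lower bound. Cyp3a44, a female-biased cytochrome P450, was not well above background on any C array before PH and was at least 756-fold higher in MCD (adjusted p 9.13e-13), at 4.69, 3.93, 5.44 and 4.73. With Fc-GLP-1 on that diet it fell by 5.5 before PH (adjusted p 2.88e-06), to -0.2, -2.59, -0.04 and -0.38. After PH it stood at 3.92, 4.24, 4.96 and 5.55 in MCD and at 4.86, 5.53, 4.9 and 2.01 in M+Fc-GLP-1, which overlapped. With the drug on MCD before PH, 2 of the 15 rose, Cyp17a1 (1.81, 0.00318) and Cyp39a1 (1.71, 0.00116), and Cyp3a41b (-1.44, 0.0122) fell beside Cyp3a44. On chow before PH Cyp39a1 rose (1.47, 0.0105) and Cyp3a16 (-2.03, 0.0311), Cyp3a41b (-2, 0.00297) and Cyp2a4 (-1.22, 0.0255) fell. After PH the drug was followed by a rise of Cyp39a1 on chow (1.37, 0.0134) beside a call for Cyp2b13, which was well above background on 0 of 4 untreated and 1 of 4 treated arrays there, and by 2 rises and 1 fall on MCD. Of all genes, 7.22% were called with the drug on MCD and 2.11% on chow before PH, and 6.50% and 2.06% after PH.

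**Figure D4:**
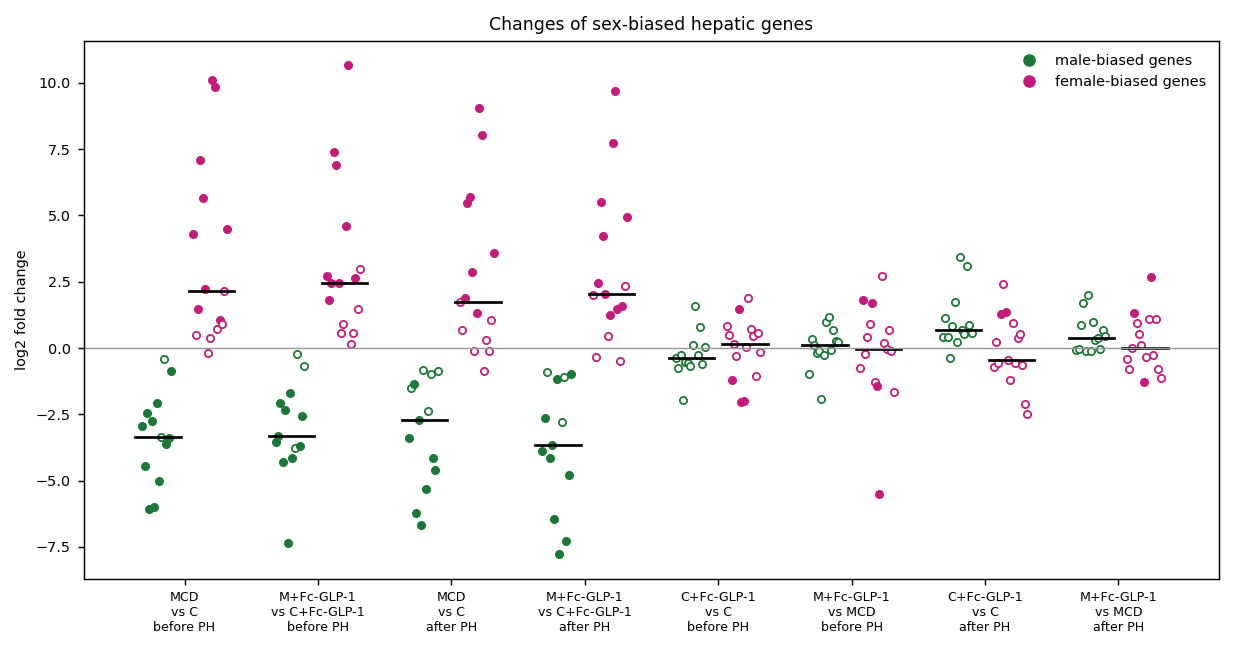
Log2 fold change of 13 male-biased and 15 female-biased genes in 8 comparisons, 1 point per gene, filled where the adjusted p was below 0.05, with a line at the list's median. The medians of male-biased genes lay between -2.72 and -3.67 and those of female-biased genes between 1.72 and 2.46 in the 4 diet comparisons, and between -0.36 and 0.69 and between -0.47 and 0.16 in the 4 comparisons with and without Fc-GLP-1.

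The centring moved all genes together in some comparisons. Centring on the array median in place of the 75th percentile shifted the median of all genes by 0.37 in MCD against C, 0.3 in C+Fc-GLP-1 against C, -0.32 in M+Fc-GLP-1 against MCD, -0.26 in M+Fc-GLP-1 against C+Fc-GLP-1 and -0.62 in the interaction, all before PH. After PH the shifts were 0.12 in MCD against C and -0.13 in M+Fc-GLP-1 against MCD, and between the times 0.16 in C and -0.11 in C+Fc-GLP-1. Normexp and the authors' values each shifted the interaction by -0.12. The falls of male-biased and the rises of female-biased genes with the diet kept the sign of their medians under every scaling tried.

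Markers of other cells moved with the groups as well. The probe that weighs most in a sum is named with it and is not a ranking of the genes. The summed linear level of 8 macrophage markers, with Cd5l or Marco usually the brightest, had medians of 80.7 in C, 261 in MCD, and with the drug 102 on chow and 80.7 on MCD, before PH. After PH the medians were 272, 389, 236 and 191 in the same order, and all 8 markers were well above background on every array. Of the 8, 7 rose in MCD against C before PH, where 10.9% of all genes were called higher. In M+Fc-GLP-1 against MCD before PH 5 fell, where 2.79% of all genes were called lower. In C after PH against before PH 8 rose, or 7 without C after PH replicate 1, beside 14.0% of all genes called. In that last comparison 2 of 8 hepatocyte markers fell (list median -0.59), or 0 without that array (-0.42). The sum of 6 neutrophil markers, led by S100a9 or Elane, had medians of 5.17, 19.2, 6.72 and 5.98 before PH and 23.2, 110, 14.8 and 12.2 after PH in that order of groups, and Mpo was well above background on 15 of 32 arrays. Stellate cell sums, led by Col3a1 in most groups, had medians of 8.15, 12.9, 9.22 and 5.88 before PH and 21.8, 8.85, 20.7 and 13.6 after PH. B and plasma cell sums, led by Jchain or Cd79b, had medians of 3.12, 9.01, 2.5 and 1.32 before PH and 5.53, 5.93, 3.35 and 1.4 after PH. Endothelial sums, led by Clec4g or Stab2, ran from a median of 50 in M+Fc-GLP-1 after PH to 80.2 in M+Fc-GLP-1 before PH. Cholangiocyte sums of 4 markers, led by Krt19 or Sox9, had medians from 0.934 in MCD after PH to 2.32 in C after PH. In M+Fc-GLP-1 after PH the highest cholangiocyte sum was 15.8, beside a median of 1.48, and the highest stellate cell sum was 35.5, beside 13.6.

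Hepatocyte marker sums had medians of 4210 in C, 2900 in MCD, and with the drug 3270 on chow and 3260 on MCD, before PH, and 2690, 2970, 3640 and 4220 after PH in the same order. Before PH, MCD against C, 2 of 8 hepatocyte markers fell, Apoa1 (-1.13, adjusted p 0.000357) and Serpina1a (-0.79, 0.0306), with a list median of -0.54. Of all genes, 15.5% were called lower there and 10.9% higher, with a median of -0.13. The falls of Ghr, Igf1, Igfals, Stat5b and Bcl6 in that comparison stand beside these hepatocyte values and rises of 7 of 8 macrophage markers (list median 1.69). There 3 of 6 neutrophil (1.91), 2 of 6 stellate cell (0.59) and 1 of 6 endothelial markers (0.28) also rose. Of 6 B and plasma cell markers 2 rose and 1 fell (-0.45), and limma called 0 of 4 cholangiocyte markers (0 unadjusted, -0.03). The part of these markers in the falls was not tested. After PH, in the same comparison, limma called 0 of 8 hepatocyte markers (2 unadjusted, list median -0.01) and 0 of 8 macrophage markers (1 unadjusted, list median 0.22). Of all genes, 6.05% were called higher there and 6.09% lower. In that comparison 3 of 6 neutrophil markers rose (list median 2.44) and 2 of 6 stellate cell markers fell (-1.02), while limma called 0 of 4 cholangiocyte markers (3 unadjusted, -1.35). Without C replicate 1 these medians were 2.39, -0.54 and -0.77, while 1 of 8 macrophage markers rose and 2 of 6 B and plasma cell markers fell (-0.6, against 0 called and -0.16 with that array). Between the treated groups after PH, MCD against chow, 6.62% of all genes were called lower and 6.20% higher. There 3 of 6 B and plasma cell markers (list median -1.18), 1 of 8 macrophage markers (-0.94) and 1 of 6 endothelial markers (-0.17) fell and 1 of 8 hepatocyte markers rose (0). Without C+Fc-GLP-1 replicate 1 these were 2, 0, 1 and 0. Before PH 1 macrophage and 1 stellate cell marker fell and 1 endothelial marker rose, beside 5.01% of all genes lower and 5.35% higher. In M+Fc-GLP-1 against MCD after PH 5 of 6 neutrophil (list median -2.52), 2 of 8 macrophage (-0.93), 2 of 6 B and plasma cell (-0.83) and 1 of 6 endothelial markers (0.02) fell. There 1 of 4 cholangiocyte markers rose (1.75), and limma called 0 of 8 hepatocyte (2 unadjusted) and 0 of 6 stellate cell markers (1 unadjusted). Of all genes, 2.79% were called lower and 3.71% higher there.

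The genes most like each member over the 32 arrays are given by Pearson r as a description, with the 8 groups shared by all points. Ghr was most like Serpinf1 (r 0.93) and Hsd3b5 (0.91), Stat5b like Scnn1a (0.89) and Spag4 (0.88), and Stat5a like Dctpp1 (0.79) and Arl16 (0.75). Igf1 was most like Hacl1 (0.91), Odf3b (0.91) and Adck5 (0.9), and Igfals like Cyp27a1 (0.91), Lifr (0.87) and Med1 (0.87). Socs2 came closest to E2f8 (0.87), 5730420D15Rik (0.77) and Txnip (0.72), and Cish to Onecut1 (0.8) and Rgs3 (0.74). For Bcl6 they were Cyb561a3 (0.83), F11 (0.82) and Atat1 (0.8), and for Cux2 they were Fmo2 (0.89), Acot3 (0.89) and D7Wsu130e (0.88). The places left out of these were held by transcripts without a gene name.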

How the data were processed

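The deposited files hold the spot intensity, per the file headers background-subtracted and detrended by Feature Extraction 10.7.3.1 and not normalized between arrays. The authors also gave a table of normalized log2 values, used here as an alternative; each of its 32 columns matched its own array best. Intensities were taken as log2 and centred on each array's 75th percentile over 59305 non-control spots. Of 55681 probes, 426 were dropped because every spot had a quality mark, 28932 passed the filter (well above background on every array of at least 1 group), and 21071 genes were tested, each by its brightest probe that passed. One mean per group was fitted to all 32 arrays with limma 3.58.1 in R 4.3.3, with Benjamini-Hochberg adjustment over all tested genes. The code was tested on simulated data. Members and lists were chosen with earlier results of these data known. Genes named are the 9 members, at most 3 genes per list, direction and comparison, markers, and the 3 genes most like each member; others were chosen after their values were seen. Sequences are from RefSeq. Replicate numbers are not paired by the labels. The number of arrays limits the precision. Alternatives were normexp (offset 50) with quantile normalization, median centring, no filter, a mean over probes, each probe alone, the authors' values, only the arrays compared, a replicate block, leaving out each array, and the percentile taken over probes, which was chosen after seeing the data.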

Additional observations from a re-analysis of the deposited data

Results flagged for a closer look

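In 72 sets of 4 arrays (9 genes in 8 groups), 6 held an array far from the other 3, where chance gives about 1 in 20. Igf1 in C+Fc-GLP-1 after PH replicate 1 was at 6.08, with the nearest array at 6.93. Socs2 had 3 such arrays: MCD before PH replicate 4 at 2.71 (nearest 1.88), C+Fc-GLP-1 before PH replicate 2 at 0.85 (nearest 3.86) and M+Fc-GLP-1 after PH replicate 4 at 2.03 (nearest 2.96). Stat5a in MCD after PH replicate 3 was at -0.84 (nearest 0.08). Bcl6 in M+Fc-GLP-1 before PH replicate 1 was at 3.44 (nearest 1.12).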

How the results depend on the processing

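Of 111 tested changes of the 9 genes, 17 were called, and 5 kept the call in every alternative: Igfals in MCD against C before PH, Cux2 in MCD against C after PH, and Ghr, Bcl6 and Cux2 in M+Fc-GLP-1 against C+Fc-GLP-1 after PH. Of the uncalled, 73 stayed uncalled throughout. Counts of genes called follow, and where not stated the cause was not tested. In MCD against C before PH the count of 5 was 3 with normexp, 2 after median centring, 3 with the authors' values and 3 to 5 leaving out an array. In C+Fc-GLP-1 against C before PH 0 became 1 with normexp, 1 with the authors' values and 0 to 1 leaving out an array. In M+Fc-GLP-1 against MCD before PH 1 became 3 with normexp, 0 after median centring, 2 without the filter, 2 with only the arrays compared and 0 to 1 leaving out an array. In M+Fc-GLP-1 against C+Fc-GLP-1 before PH 2 became 1 with the authors' values, 0 with only the arrays compared, where fewer samples set the spread, and 1 to 2 leaving out an array. After PH, MCD against C went from 3 to 5 with normexp, 5 with the authors' values, 2 with only the arrays compared and 2 to 5 leaving out an array. C+Fc-GLP-1 against C ran from 0 to 1 leaving out an array. M+Fc-GLP-1 against MCD went from 1 to 2 with the percentile over probes, chosen after seeing the data, 2 with the authors' values, 2 with only the arrays compared, and stayed at 1 leaving out any array. M+Fc-GLP-1 against C+Fc-GLP-1 went from 5 to 4 after median centring, 4 without the filter, 4 with only the arrays compared and 4 to 5 leaving out an array. Between the times 0 became 1 in C with normexp and 0 to 1 leaving out an array, 2 in MCD with only the arrays compared, and 2 with normexp, 1 without the filter and 0 to 1 leaving out an array in C+Fc-GLP-1. Among changes called in the main analysis or in the alternative, the sign turned for Igf1 with probe 4 in MCD against C (0.47) and M+Fc-GLP-1 against C+Fc-GLP-1 (0.72) after PH, and with probe 5 in C between the times (-1.08). Uncalled differences near 0 crossed it in some alternatives.

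With the replicate number as a block, 4 in place of 5 genes were called in M+Fc-GLP-1 against C+Fc-GLP-1 after PH, and counts elsewhere were the same. Arrays with the same number had a mean residual r of 0.0173 over 112 pairs, against -0.0053 over 336 pairs with different numbers. In 0 of 12 comparisons were all 4 same-number pairs above 0.1, though single pairs reached 0.52 (C+Fc-GLP-1 against C after PH), and 3 of 4 were above it in M+Fc-GLP-1 against C+Fc-GLP-1 before PH. Dim spots limit Cux2 in chow groups, where the brighter probe was not well above background on 2 arrays and the dimmer probe on any.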
